A study of Caenorhabditis elegans with 12 samples.

Results

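The comparison described here sets spr-4;spr-3;daf-2 worms, called the triple mutant, against spr-4;spr-3 worms, called the double mutant, and so gives the difference that goes with the daf-2 mutation in animals that already lack normal spr-3 and spr-4. Its 6 RNA-seq libraries, 3 of each genotype, were chosen by their genotype labels from the 12 of the series, whose other 6 are 3 of N2 (the wild type) and 3 of daf-2. All 12 come from whole Caenorhabditis elegans in the N2 background at day 10, grown at 20 °C, with 100 worms a strain, and both genotypes compared here carry the spr-4 and spr-3 mutations. No label names an allele of any of these genes. Of 46739 genes in the count table, 18342 had enough counts to be tested. The labels number the replicates of a genotype but do not say whether they came from separate cultures, so the p-values measure the spread between these libraries, which may be in part technical.

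DAF-2 is the worm's receptor for insulin and insulin-like growth factor. It signals through a kinase cascade, in which PDK-1, the AKT kinases and SGK-1 act, that keeps the FOXO transcription factor DAF-16 out of the nucleus. When the receptor is weakened, DAF-16 enters the nucleus, stress defence genes (class I) are switched on, a second set (class II) is switched off, and the animals live long. SPR-3 and SPR-4 are zinc finger proteins that came out of screens for mutations which relieve the egg-laying defect of worms without the presenilin SEL-12, and they are likened to REST, the vertebrate repressor of neuronal genes. The title of the series names REST together with lifespan and neural excitation.

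In order of replicate, 23712797, 32899574 and 31169237 reads were counted for the double mutant and 27576129, 40481156 and 41738783 for the triple mutant. Values below are counts per 1000000 of the library after TMM scaling (CPM), and a fold is on the log2 scale with its standard error unless given as a ratio. One double mutant library stands apart. Among genes of at least 5 CPM, 41 were over 4-fold higher in replicate 2 of the double mutant than in both other double mutant libraries, against at most 2 for any of the other 11 libraries. A further 15 were over 4-fold lower in replicate 1 than in both its fellows, against at most 3 for any other library. Genes expressed in the uterine lumen (ule genes) took 2.46% of the counts of replicate 2 and 0.770 and 0.442% in replicates 1 and 3. Yolk genes took 3.00% against 1.08 and 1.45%. Log counts of replicate 2 correlated at 0.946, 0.943 and 0.94 with N2, and at 0.94 and 0.948 with replicates 1 and 3. The chi-square of count differences for each degree of freedom, larger for less alike pairs, was 95.8, 91.4 and 107 with N2. With replicates 1 and 3 it was 136 and 155, so by this measure replicate 2 lay nearer to N2. Results that rest on replicate 2 are given with and without it. Ribosomal RNA genes took 3.44, 2.26 and 2.54% of the double mutant counts. Their share was 1.83, 2.00 and 2.03% in the triple mutant, without overlap. This sign of RNA preparation thus moved with the comparison and with every gene group described below. Its part in them was not tested.

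The mutated genes were still transcribed. The spr-3 gene (chromosome X, 4514093 to 4516895 of WBcel235) was at 30.5, 28.5 and 26 CPM in the double mutant and 40.9, 37.9 and 42.5 CPM in the triple mutant. All 3 triple mutant libraries were above all 3 of the double mutant, by 0.51 ± 0.13 (edgeR adjusted p = 0.0158), a call that was lost without double mutant replicate 3 (0.081) or triple mutant replicate 3 (0.067). The daf-2 transcript (chromosome III, 2994514 to 3040846) was at 58.2, 45.5 and 45.8 CPM in the double mutant and 66.3, 56.4 and 70.8 CPM in the triple mutant. These ranges overlap, and the difference did not pass (0.37 ± 0.14, edgeR adjusted p = 0.076, and 0.04 without double mutant replicate 1). For spr-4, 39.4, 36.4 and 41.2 CPM stood against 36.0, 21.8 and 40.3 CPM (-0.25 ± 0.21, edgeR adjusted p = 0.487). The presenilin gene hop-1 was at 19.6, 18.1 and 21.9 CPM and then 15.8, 12.4 and 12.9 CPM, and its fall of 1.45-fold (95% interval 1.13 to 1.86) lay just past the threshold (edgeR adjusted p = 0.0432). That call was lost when any of 8 libraries was left out, with adjusted p of 0.051, 0.056 and 0.055 without N2 replicate 2, 1 or 3, 0.063 without daf-2 replicate 3, 0.086 and 0.15 without double mutant replicate 1 or 3, and 0.14 without triple mutant replicate 2 or 3. The other presenilin gene sel-12 (-0.20 ± 0.19), daf-16 (0.15 ± 0.13) and the spr-1, spr-2 and spr-5 genes did not pass (edgeR adjusted p = 0.542, 0.498, 0.549, 0.0737 and 0.276), although spr-2, lower by 1.26-fold, passed without double mutant replicate 2 (0.028). Transcript amounts do not show whether a protein is made.

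Across all genes, 1287 rose (7.02% of those tested) and 1452 fell (7.92%) in the triple mutant at an edgeR adjusted p under 0.05. Of these, 654 rose (3.57%) and 503 fell (2.74%) by at least 2-fold. In 30.7% of all tested genes the 3 values of one genotype lay wholly above those of the other. When double mutant replicate 2 was left out, 1712 rose (9.02%) and 1591 fell (8.38%) of 18975 tested, and 2404 of the 2739 calls were kept. Of those 2739 calls, 1527 were lost when some library was left out, so the genes named below, most of which kept their calls, are steadier than the calls in general.

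Among the genes that rose most, several went from almost no reads to a clear signal. The aldehyde dehydrogenase gene alh-2 (chromosome V, 1644169 to 1647728) was at 0.245, 0.302 and 0.109 CPM in the double mutant and 12.29, 11.7 and 16.9 CPM in the triple mutant. The gap between the groups was 62.3-fold (95% interval 33 to 118) (edgeR adjusted p = 4.6e-07). For icmt-1 (chromosome I, 4901918 to 4903264), named for isoprenylcysteine carboxyl methyltransferase, the double mutant gave 24.2, 26.6 and 18.5 CPM and the triple mutant 456, 518 and 490.3 CPM. This was the strongest rise of a gene already well expressed among those named here, 21.1-fold (95% interval 15.1 to 29.6) (edgeR adjusted p = 1.1e-08). The dienelactone hydrolase domain gene dlhd-1 went from 2.13, 2.0 and 2.09 to 12.7, 18.6 and 12 CPM (2.80 ± 0.22, edgeR adjusted p = 7.6e-07). Large rises also came from the hedgehog-like gene grd-3 (12.7-fold), clx-1 (34.4-fold), drd-5 (10.53-fold), spex-2 (8.18-fold) and the cuticle collagen genes col-50 (8.20-fold) and col-85 (7.44-fold). Among genes with only a sequence name, Y51A2A.4 was read at 0, 0.212 and 0 CPM in the double mutant and 19.4, 24.9 and 17.9 CPM in the triple mutant. C08F11.17 (6.50 ± 0.43) and F15H10.5 (5.22 ± 0.44) also rose from under 1 CPM (edgeR adjusted p = 1.9e-07 and 1.2e-06).

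The genes that fell most include proteases, lipases, a lysozyme and a lectin. The aspartic protease gene asp-17 (chromosome V, 19035723 to 19037322) was at 32.4, 90.6 and 125 CPM in the double mutant and 3.34, 1.68 and 4.36 CPM in the triple mutant. Even its lowest double mutant value lay over the highest triple mutant value, and the fall was 26.4-fold (95% interval 12.7 to 55.2) (edgeR adjusted p = 0.0001). The lysosomal lipase genes lipl-5 and lipl-1 were at 13.7, 72.0 and 40.1 and at 12.51, 29.8 and 27.8 CPM in the double mutant. In the triple mutant they were at 1.25, 0.578 and 0.718 and at 1.14, 2.18 and 0.814 CPM, log2 fold changes of -5.67 ± 0.79 and -4.08 ± 0.63 (edgeR adjusted p = 0.00159 and 0.00217). The invertebrate-type lysozyme gene ilys-5 spread over 1.33, 32.9 and 14.2 CPM in the double mutant and was at 0.183, 0.0263 and 0 CPM in the triple mutant, so its size of fall is poorly fixed (95% interval of the ratio 25.6 to 2794). The C-type lectin gene clec-10 (-6.09 ± 0.77), the cathepsin B-like gene cpr-2 (-5.32 ± 0.76), the claudin-like gene clc-19 (-2.90 ± 0.23) and the thioredoxin gene trx-3 (-3.29 ± 0.32) fell as well, and so did F55G11.4 (-4.48 ± 0.53) and F35E12.9 (-3.83 ± 0.27), which have no class name.

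**Figure D1:**
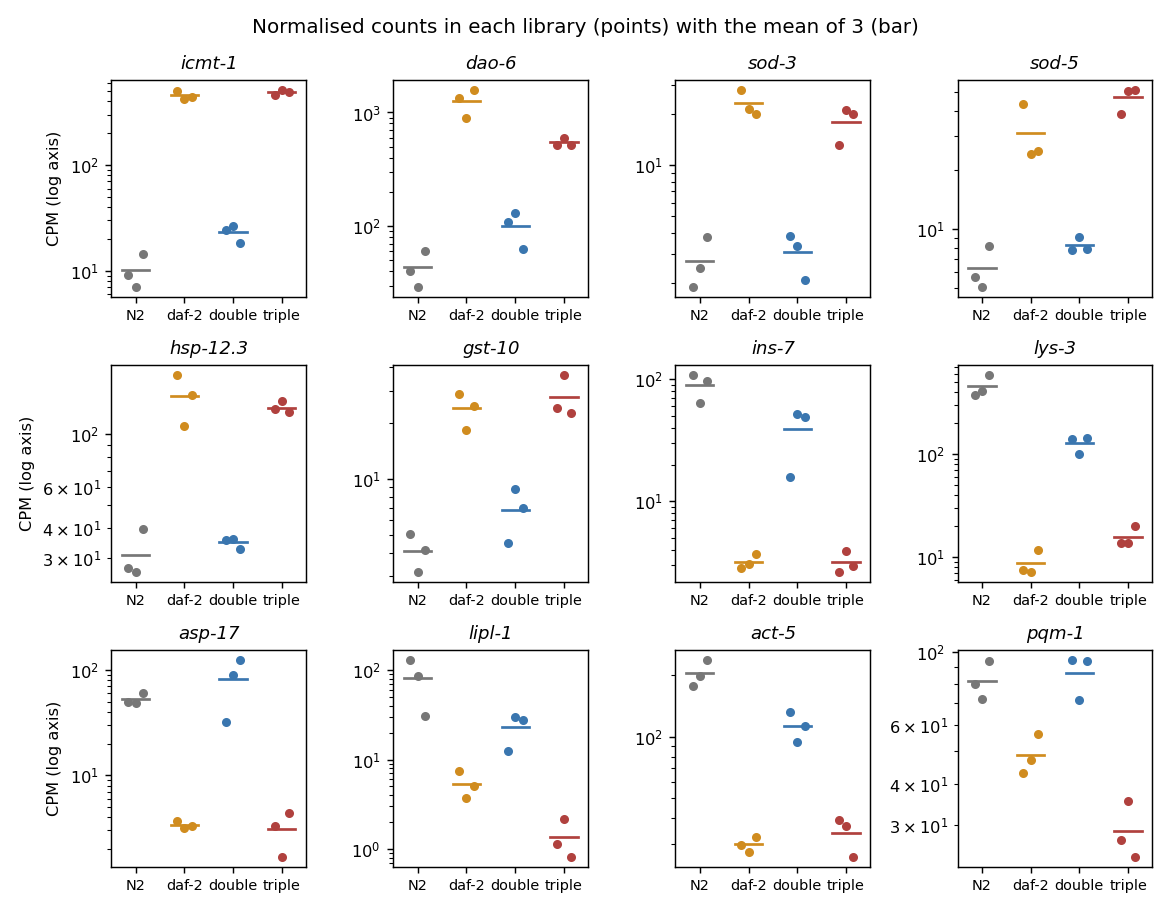
CPM after TMM scaling (log axis, not starting at 0) of 12 genes in each of the 12 libraries, with a point for each library and a bar for the mean of 3, by genotype. For every one of the 12 genes the triple mutant points lie wholly to one side of the double mutant points, above them for icmt-1, dao-6, sod-3, sod-5, hsp-12.3 and gst-10 and below them for ins-7, lys-3, asp-17, lipl-1, act-5 and pqm-1.

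Within the insulin/IGF-1 pathway itself, 4 of 23 tested genes fell and 0 rose by edgeR (1 at an unadjusted p under 0.05, 1 by DESeq2 and 0 by limma-voom), with a median log2 fold change of -0.08 against 0.01 over all genes. The share called was 17.4%, against 14.9% of all tested genes. The zinc finger factor PQM-1 acts on class II genes and moves out of the nucleus when DAF-16 moves in. Its gene pqm-1 (chromosome II, 11150391 to 11152595) was at 94.5, 71.6 and 93.6 CPM in the double mutant and 26.9, 35.4 and 24.0 CPM in the triple mutant, a fall of 3.01-fold (95% interval 2.34 to 3.87) (edgeR adjusted p = 1.9e-05). The kinase gene pdk-1 (chromosome X, 1321344 to 1327986) went from 48.6, 46.0 and 55.5 to 26.7, 26.7 and 19 CPM, with no overlap (-1.05 ± 0.17, edgeR adjusted p = 0.00051). Smaller falls were seen for sgk-1, a kinase downstream of PDK-1 (-0.78 ± 0.22, edgeR adjusted p = 0.0242), and par-5, a 14-3-3 protein that binds DAF-16 (-0.41 ± 0.12, edgeR adjusted p = 0.0273). The sgk-1 call was lost without double mutant replicate 3 (0.14) or triple mutant replicate 1 (0.092) or 2 (0.061), and the par-5 call without replicate 1 (0.053) or 3 (0.1) of the double mutant or replicate 1 (0.081) or 3 (0.12) of the triple mutant. The list count fell to 2 without double mutant replicate 3 or triple mutant replicate 1.

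Insulin-like peptides, the ligands of DAF-2, moved both ways, 7 of 35 rising and 3 falling, with a median of 0.32. The share called was 28.6%, against 14.9% of all tested genes. The peptide gene ins-7, which DAF-16 is known to repress in the intestine, was at 15.9, 52.2 and 49.0 CPM in the double mutant and 2.64, 3.94 and 2.94 CPM in the triple mutant. It fell by 12.2-fold (95% interval 6.72 to 22.3) (edgeR adjusted p = 0.0001). The ins-11 gene fell from 23.9, 23.9 and 29.98 to 4.33, 6.33 and 5.12 CPM (-2.296 ± 0.28, edgeR adjusted p = 6.8e-05). For ins-8, 149 reads in the double mutant libraries stood against 0 in the triple mutant, at least 54-fold lower when 3 reads are put over the whole triple mutant group and libraries are scaled by TMM (edgeR adjusted p = 0.00217). In the other direction ins-16 went from 1.57, 1.45 and 1.44 to 6.49, 7.67 and 4.74 CPM (2.08 ± 0.33), ins-29 from 3.39, 3.51 and 2.80 to 12.25, 12.9 and 11 CPM (1.90 ± 0.28) and ins-30 from 30.6, 17.8 and 34.7 to 53.7, 73.9 and 60.1 CPM (1.18 ± 0.26), with edgeR adjusted p of 0.00055, 0.00027 and 0.00641. Without double mutant replicate 3 or triple mutant replicate 1 the rises numbered 4, and without triple mutant replicate 2 they numbered 3, while the 3 falls stayed.

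Of 25 tested class I genes, those known to be raised through DAF-16, 9 rose and 3 fell, with a median of 0.39. The mitochondrial superoxide dismutase gene sod-3 (chromosome X, 17092753 to 17094306), a standard readout of DAF-16, was at 3.81, 3.33 and 2.09 CPM in the double mutant and 13.1, 21.1 and 20.2 CPM in the triple mutant. It rose 5.93-fold (95% interval 3.90 to 9.0) (edgeR adjusted p = 2.5e-05), with all triple mutant libraries above 13 CPM and all double mutant libraries below 4. Another superoxide dismutase gene, sod-5, gave 7.79, 9.07 and 7.88 CPM and then 38.7, 50.8 and 51.7 CPM (2.51 ± 0.24, edgeR adjusted p = 4.7e-06). Of the small heat shock proteins, the genes hsp-12.3, from 35.9, 36.0 and 32.8 to 127, 137 and 123 CPM, and sip-1, from 406, 565 and 394 to 1071, 1261 and 999 CPM, rose 3.70-fold and 2.44-fold (edgeR adjusted p = 5.9e-06 and 0.00024). Next to them stood hsp-12.6 (0.99 ± 0.23), lea-1, a late embryogenesis abundant protein that protects against drying (0.81 ± 0.16), and the cytochrome P450 gene cyp-35B1 (1.01 ± 0.16). The metallothionein gene mtl-1 was at 745, 961 and 654 CPM and then 1386, 1621 and 1283 CPM (0.86 ± 0.22, edgeR adjusted p = 0.0129), and this call was lost without double mutant replicate 3 (0.075) or triple mutant replicate 2 (0.052). The dauer gene dao-6, outside this list, rose from 109, 131 and 62.8 to 518, 600.5 and 519.9 CPM (2.44 ± 0.30, edgeR adjusted p = 0.0001).

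The 3 members that fell, against the list's name, were aqp-1, a water and glycerol channel, fat-7, a desaturase that makes oleic acid, and the lysozyme gene lys-7. The lys-7 values, 651, 1278 and 1340.4 CPM in the double mutant and 642, 829 and 551 CPM in the triple mutant, overlap (-0.69 ± 0.23, edgeR adjusted p = 0.0485). That call was lost without any of 10 libraries, all but double mutant replicate 1 and triple mutant replicate 2 (adjusted p up to 0.20). The aqp-1 values were 47.5, 75.5 and 50.6 CPM in the double mutant and 7.23, 9.98 and 8.11 CPM in the triple mutant (-2.77 ± 0.31, edgeR adjusted p = 5.3e-05), and fat-7, at 3.49, 1.06 and 1.90 and 0.660, 0.315 and 0.574 CPM, fell by 4.16-fold (edgeR adjusted p = 0.00872, lost at 0.051 without double mutant replicate 1). The daf-2 single mutant had less aqp-1 and fat-7 than N2 (-2.81 ± 0.31 and -1.95 ± 0.47, edgeR adjusted p = 2e-05 and 0.00681). Of 9 class II genes, 4 fell and 0 rose by edgeR, by DESeq2, by limma-voom or at an unadjusted p under 0.05, with a median of -1.63. Besides ins-7 they were the metallothionein gene mtl-2, at 548, 1191 and 837 CPM and then 208, 303 and 165 CPM (-1.93 ± 0.30), dod-19 (-1.70 ± 0.22) and dod-23 (-1.63 ± 0.23), with edgeR adjusted p of 0.00075, 0.0001 and 0.00025. The count of class II falls stayed at 4 or 5 whichever library was left out.

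Other protein folding genes did not share the rise of the small heat shock proteins, of which 5 of 13 rose (3 without double mutant replicate 3) and 1, hsp-17, fell (-0.84 ± 0.20, edgeR adjusted p = 0.0105, lost at 0.053 without double mutant replicate 3 and 0.051 without triple mutant replicate 3). Of 13 HSP70 and HSP90 chaperone genes 2 fell and 0 rose by edgeR (2 at an unadjusted p under 0.05, 1 by DESeq2 and 0 by limma-voom). The share called was 15.4%, near the 14.9% of all tested genes. Both that fell encode chaperones of the endoplasmic reticulum related to BiP. The hsp-3 gene went from 557, 419 and 591 to 226, 199 and 200.2 CPM (-1.32 ± 0.16, edgeR adjusted p = 4.1e-05) and hsp-4 from 380.3, 330.3 and 531 to 201, 151 and 188 CPM (-1.201 ± 0.20, edgeR adjusted p = 0.00074). In neither gene did the groups overlap.

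Detoxification families moved in both directions, more of their members up than down. Of 48 glutathione S-transferase genes 10 rose and 3 fell, of 72 cytochrome P450 genes 16 rose and 8 fell, and of 65 UDP-glucuronosyltransferase genes, which attach sugars to small molecules, 15 rose and 11 fell. Their medians were 0.08, 0.19 and 0.18. The shares called were 27.1, 33.3 and 40%, against 14.9% of all tested genes. The transferase gene gst-10 went from 4.51, 8.80 and 6.96 to 24.0, 36.5 and 22.7 CPM (2.04 ± 0.27, edgeR adjusted p = 0.0001), gst-3 rose by 1.61 ± 0.21 and the abundant gst-4, a common readout of the SKN-1 stress factor, from 406, 432 and 278 to 805, 868 and 899 CPM (1.21 ± 0.16, edgeR adjusted p = 0.00013). Among P450 genes cyp-33C1 (3.78 ± 0.66) and cyp-33C2 (2.01 ± 0.23) rose and cyp-13A8 fell (-2.14 ± 0.44, edgeR adjusted p = 0.00356). The sharpest change among the glucuronosyltransferases was a fall, that of ugt-51 from 495, 259 and 359 to 52.8, 46.3 and 57.1 CPM (7.13-fold (95% interval 4.77 to 10.7), edgeR adjusted p = 8.4e-06). A second, ugt-63, fell (-2.09 ± 0.20), and ugt-56 rose by 1.41 ± 0.30 (edgeR adjusted p = 5e-06 and 0.00432). The counts of rises dropped to 6 glutathione S-transferases without double mutant replicate 3 or triple mutant replicate 3, to 8 and 10 P450 genes without the same 2 libraries, and to 8 glucuronosyltransferases without triple mutant replicate 3. Falls dropped to 1 glutathione S-transferase without triple mutant replicate 3 and 5 P450 genes without triple mutant replicate 1.

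**Figure D2:**
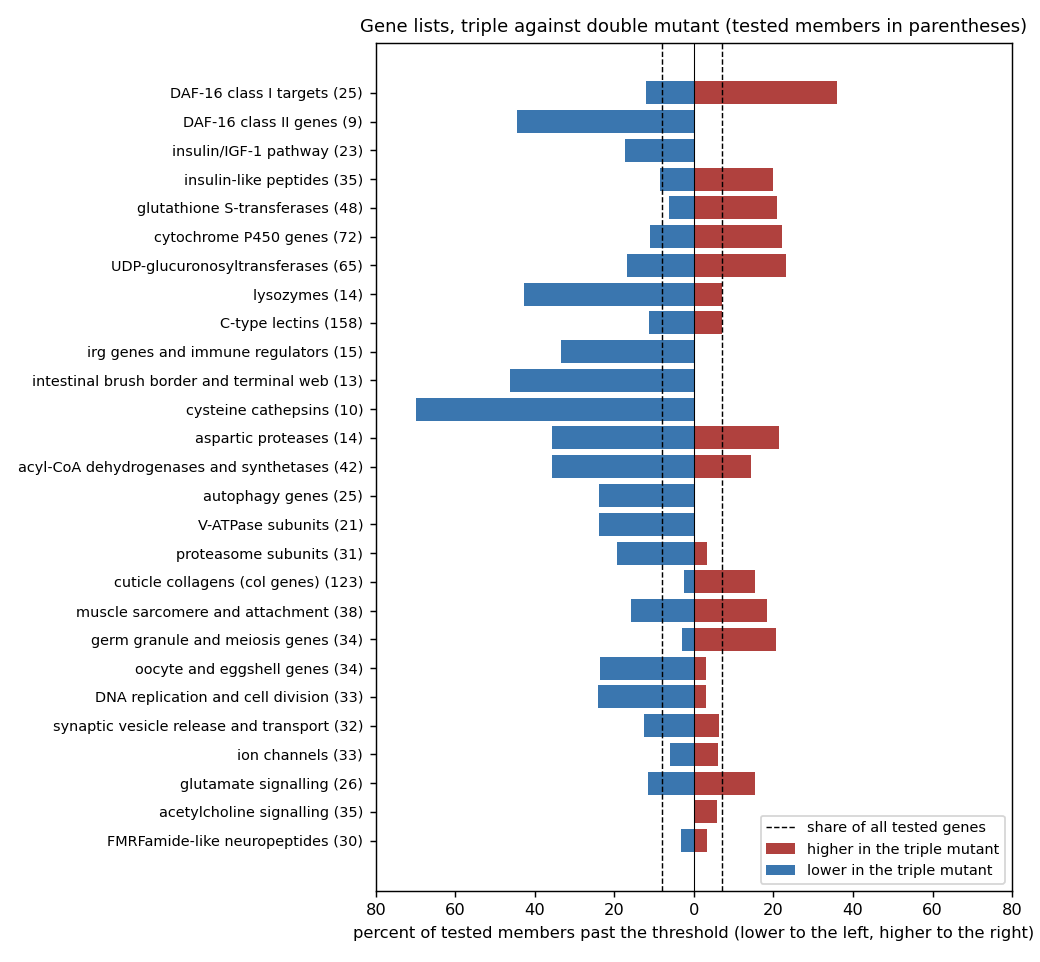
Percent of tested members of 27 gene lists that passed an edgeR adjusted p of 0.05 as higher in the triple mutant (red, to the right) or lower (blue, to the left), with the number tested in parentheses and dashed lines at the share of all tested genes (7.02% higher, 7.92% lower). Cysteine cathepsins, intestinal brush border genes, class II genes and lysozymes lie far to the left and DAF-16 class I genes to the right, while ion channel and FMRFamide peptide lists lie inside the dashed lines and synaptic falls lie past theirs. The synaptic falls, 4 with all libraries, numbered 1 without double mutant replicate 3 or triple mutant replicate 2.

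Several structural genes of the intestine were lower in the triple mutant. Of 13 genes of the brush border and the terminal web under it, 6 fell and 0 rose by edgeR, by DESeq2, by limma-voom or at an unadjusted p under 0.05, with a median of -0.75. Microvilli of the gut are built on the actin ACT-5, whose gene act-5 (chromosome III, 13604412 to 13606066) was at 132, 93.9 and 114 CPM in the double mutant and 39.2, 36.4 and 25.8 CPM in the triple mutant. It fell by 3.35-fold (95% interval 2.59 to 4.34) (edgeR adjusted p = 8e-06). Intermediate filament genes of the terminal web fell with it, ifd-2 from 23.5, 16.12 and 34 to 2.94, 4.83 and 4.67 CPM (-2.56 ± 0.26) and ifb-2 from 32.1, 18.8 and 29.4 to 8.51, 10.8 and 7.95 CPM (-1.56 ± 0.21), as did the filament organiser gene ifo-1 (-0.93 ± 0.21), with edgeR adjusted p of 7.9e-06, 0.00011 and 0.00798. Between 4 and 6 of the 13 fell whichever library was left out. The intestine marker list, which shares act-5 and ifb-2 with these genes, had 3 falls among 6 members. Its summed level was 208 to 245 CPM in the double mutant and 77.8 to 108 CPM in the triple mutant. In whole worms, fewer cells of a type and less RNA per cell cannot be told apart.

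Digestive proteases of the gut were called in larger shares than all genes (14.9%), the cathepsins in 1 direction and the aspartic proteases in both. Of 10 cysteine cathepsin genes 7 fell and 0 rose by edgeR, by DESeq2, by limma-voom or at an unadjusted p under 0.05, with a median of -1.02. The count was 4 without double mutant replicate 3, triple mutant replicate 1 or triple mutant replicate 3. The cathepsin B-like gene cpr-5 gave 118.6, 245 and 145 CPM in the double mutant and 14.5, 26.9 and 16.13 CPM in the triple mutant (-3.14 ± 0.27, edgeR adjusted p = 2.1e-06). Another cathepsin B-like gene, cpr-8, was nearly lost, from 3.28, 5.29 and 3.29 to 0.367, 0.236 and 0 CPM (edgeR adjusted p = 0.00011), and the cathepsin L gene cpl-1, which works in lysosomes, fell by 2.07-fold (-1.05 ± 0.15, edgeR adjusted p = 0.00026). Of 14 aspartic protease genes 5 fell and 3 rose (5 rose without double mutant replicate 2). Besides asp-17, asp-1 fell from 74.0, 216 and 252 to 20.9, 33.1 and 16.6 CPM and asp-5 from 121, 251 and 292 to 79.5, 98.5 and 65.6 CPM (-2.94 ± 0.43 and -1.45 ± 0.27, edgeR adjusted p = 0.0014 and 0.00255). The rarer asp-8, from 0.419, 0.0605 and 0.408 to 2.35, 3.26 and 4.76 CPM, and asp-9, from 3.04, 1.36 and 1.28 to 6.79, 7.91 and 10.1 CPM, rose (3.54 ± 0.52 and 2.14 ± 0.34, edgeR adjusted p = 0.00029 and 0.00052).

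Defence lists went different ways. Lysozymes cleave bacterial cell walls, and 6 of 14 lysozyme genes fell and 1 rose, with a median of -1.205. The lys-3 gene (chromosome V, 10282100 to 10283544) was at 139, 99.7 and 144 CPM in the double mutant and 13.6, 13.6 and 19.8 CPM in the triple mutant, a fall of 8.13-fold (95% interval 5.74 to 11.5) (edgeR adjusted p = 7.7e-07). The ilys-2 gene fell from 12.1, 8.92 and 8.62 to 1.39, 2.73 and 2.15 CPM (-2.21 ± 0.24) and lys-8 from 61.2, 121.8 and 130.1 to 30.8, 44.2 and 27.9 CPM (-1.60 ± 0.26), with edgeR adjusted p of 1.6e-05 and 0.00081. All told, 10 lysozyme genes fell without double mutant replicate 1. The single rise was lost without any of 9 libraries, all but N2 replicates 2 and 3 and daf-2 replicate 2, and is not named. Of 15 irg (infection response) genes and immune regulators 5 fell and 0 rose by edgeR (0 also by DESeq2, by limma-voom and at an unadjusted p under 0.05), among the falls irg-8 (-2.29 ± 0.22), the p38 kinase gene pmk-1, from 28.2, 31.8 and 38.1 to 12.1, 13.9 and 14.5 CPM (-1.28 ± 0.17), and the bZIP factor gene zip-10 (-0.82 ± 0.16), with edgeR adjusted p of 7e-06, 0.00011 and 0.00276. Antimicrobial peptide genes of the epidermis had 4 falls and 1 rise of 19, the falls including the caenacin genes cnc-7 (-2.71 ± 0.44) and cnc-2 (-1.56 ± 0.33, edgeR adjusted p = 0.00066 and 0.00634), and 2 falls without double mutant replicate 2, triple mutant replicate 1 or triple mutant replicate 3. C-type lectins had 18 falls and 11 rises of 158, and 12 falls and 19 rises without double mutant replicate 2. With all libraries 18.4% of them were called, against 14.9% of all tested genes. Falls numbered 9 and 10 without triple mutant replicates 1 and 3. Genes induced by fungi and bacteria leaned to rises, with 8 rises and 4 falls of 54 and a median of 0.10. Their falls numbered 2 without double mutant replicate 3 or triple mutant replicate 1 and 1 without triple mutant replicate 3. The share called was 22.2% for this list, 26.3% for epidermal peptides, 33.3% for irg genes and immune regulators and 50% for lysozymes. The lectin gene clec-31 was at 1.08, 9.77 and 4.84 and then 0, 0 and 0.239 CPM (-5.79 ± 1.07, edgeR adjusted p = 0.00448), and clec-218 rose from 3.53, 6.53 and 4.78 to 18.3, 21.7 and 16.7 CPM (1.93 ± 0.24, edgeR adjusted p = 7e-05).

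Genes of fat and sugar metabolism were called in both directions. Of 42 acyl-CoA dehydrogenase, oxidase and synthetase genes 15 fell and 6 rose, with a median of -0.46. Falls numbered 9 and 6 without double mutant replicate 3 and triple mutant replicate 3. Peroxisomal acyl-CoA oxidases shorten the fatty side chains of ascaroside pheromones. Of these, acox-1.1 went from 227, 133 and 177 to 65.8, 61.2 and 72.9 CPM (-1.42 ± 0.20), acox-1.5 from 8.28, 17.2 and 18.4 to 2.86, 3.73 and 2.27 CPM (-2.31 ± 0.35), and acox-3 fell (-1.05 ± 0.13), whereas acox-1.4 rose from 7.97, 12.8 and 8.97 to 25.4, 24.4 and 36.4 CPM (1.53 ± 0.22), with edgeR adjusted p of 0.00021, 0.00035, 6.6e-05 and 0.00025. The mitochondrial acyl-CoA synthetase gene acs-2 fell by 2.06-fold (edgeR adjusted p = 0.00033). Lysosomal lipid signalling genes went the other way from lipl-1 and lipl-5. The lipase gene lipl-4, which lengthens life when overexpressed, was at 18.5, 16.484 and 14.4 CPM in the double mutant and 41.3, 41.4 and 51.3 CPM in the triple mutant (1.44 ± 0.17, edgeR adjusted p = 5.2e-05), and lbp-8, whose protein carries lipid from lysosome to nucleus, was at 4.09, 2.87 and 2.01 CPM and then 9.25, 9.43 and 8.38 CPM (1.60 ± 0.29, edgeR adjusted p = 0.00157). Of 29 glyoxylate, gluconeogenesis and trehalose genes 3 rose and 4 fell, with a median of -0.01. The rises numbered 0 without double mutant replicate 3, and the falls 9 without double mutant replicate 2 and 2 without double mutant replicate 3 or triple mutant replicate 2. The trehalase gene tre-3 fell (-1.203 ± 0.18, edgeR adjusted p = 0.00025). Glycogen phosphorylase, pygl-1, rose from 860.2, 1125 and 762 to 1492, 1332 and 1652 CPM (0.70 ± 0.16, edgeR adjusted p = 0.00838, and 0.059 without double mutant replicate 3).

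Lists of turnover machinery had more falls than rises with all libraries, by smaller amounts. The share called was 23.8% for V-ATPase, 24% for autophagy and 22.6% for proteasome genes. Of all tested genes 14.9% were called and 7.92% fell. Of 21 subunits of the V-ATPase, the pump that acidifies lysosomes, 5 fell and 0 rose by edgeR (1 at an unadjusted p under 0.05, 0 by DESeq2 and by limma-voom), with 20 of 21 fold changes below 0 and a median of -0.31. The subunit gene vha-12 went from 118, 100.3 and 122.1 to 68.2, 67.5 and 61.2 CPM (-0.79 ± 0.13, edgeR adjusted p = 0.00064). Of 25 autophagy genes 6 fell and 0 rose by edgeR (1 at an unadjusted p under 0.05, by DESeq2 and by limma-voom), with a median of -0.25. They included atg-16.1 (-1.14 ± 0.24) and atg-16.2 (-0.81 ± 0.14), which help attach the LGG proteins to membranes, and lgg-2, one of those proteins, from 162, 125 and 152 to 87.7, 83.7 and 102 CPM (-0.68 ± 0.14), with edgeR adjusted p of 0.00429, 0.00108 and 0.00375. Proteasome subunits had 6 falls and 1 rise of 31. These counts moved with single libraries. V-ATPase falls numbered 8 without double mutant replicate 2, 3 without double mutant replicate 1 or 3 and 2 without triple mutant replicate 3, and autophagy falls 3 without double mutant replicate 1, triple mutant replicate 1 or triple mutant replicate 3. Proteasome falls numbered 1 without double mutant replicate 1 or 3, 2 without triple mutant replicate 1 or 3, and 3 without triple mutant replicate 2.

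Among cuticle genes the col family rose more often than it fell. Of 123 col genes, which encode collagens of the cuticle, 19 rose and 3 fell, with a median of 0.28, and 13 to 22 rose whichever library was left out. The share called was 17.9%, near the 14.9% of all tested genes, of which 7.02% rose and 7.92% fell. The collagen gene dpy-17, needed for body shape, rose from 29.98, 26.5 and 23.5 to 68.5, 86.0 and 65.9 CPM (1.46 ± 0.15, edgeR adjusted p = 8e-06), and col-130 fell from 21.8, 9.80 and 21.0 to 2.79, 2.86 and 3.04 CPM (-2.59 ± 0.30, edgeR adjusted p = 3.3e-05). Other cuticle lists had no such lean. Of 52 abu and pqn genes 5 rose and 6 fell. Their rises numbered 1 without double mutant replicate 1 or 3, 8 without double mutant replicate 2 and 2 to 3 without a triple mutant library, and their falls 3 without triple mutant replicate 3. Of 34 astacin proteases 2 rose and 4 fell, or 1 and 2 without double mutant replicate 3. Of 38 muscle sarcomere and attachment genes 7 rose and 6 fell. Against 14.9% of all tested genes, the share called was 17.6% for astacins, 21.2% for abu and pqn genes and 34.2% for muscle genes. The tropomyosin gene lev-11 was at 219, 514 and 168 CPM in the double mutant and 887, 974 and 941 CPM in the triple mutant (1.64 ± 0.31), the paramyosin gene unc-15 at 395, 601 and 412 and then 983, 988 and 1052 CPM (1.102 ± 0.17), and the muscle actin gene act-4 at 1924, 3898 and 1888 and then 5738, 5899 and 6072 CPM (1.1996 ± 0.23), with edgeR adjusted p of 0.00283, 0.00044 and 0.00213. In all 3 genes double mutant replicate 2 lay highest of its group, between the other double mutant libraries and the triple mutant. Without it the fold changes were 2.29, 1.34 and 1.65. Muscle rises numbered 11 without that library and 4 without double mutant replicate 1, and falls 2 without double mutant replicate 1 and 3 without double mutant replicate 3 or triple mutant replicate 3.

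Germline lists differed in their counts. Of 34 oocyte and eggshell genes 8 fell and 1 rose, with a median of -0.31, and of 34 germ granule and meiosis genes 7 rose and 1 fell, with a median of 0.29. Maternal RNA-binding proteins were among the falls, puf-5 going from 819.7, 647 and 943 to 468, 406 and 446 CPM (-0.87 ± 0.16), pos-1 from 296, 315 and 310.5 to 179.6, 186 and 172 CPM (-0.78 ± 0.13) and spn-4 from 266, 251 and 241 to 179, 138 and 143 CPM (-0.72 ± 0.14), with edgeR adjusted p of 0.0017, 0.00097 and 0.00299. The 1 oocyte gene that rose was lin-41, from 48.1, 44.7 and 32.2 to 100.1, 62.0 and 95.7 CPM (1.05 ± 0.21, edgeR adjusted p = 0.0033), which holds growing oocytes back from division. Germ granules are RNA and protein bodies around germ nuclei. Their helicase genes glh-1, from 259, 334 and 248 to 452, 459.9 and 549.5 CPM (0.80 ± 0.16), and glh-2, from 84.6, 111 and 65.4 to 199, 183 and 202 CPM (1.16 ± 0.17), and the Argonaute gene csr-1 (0.85 ± 0.16) rose, with edgeR adjusted p of 0.00311, 0.00024 and 0.00199. Of 33 DNA replication and cell division genes 8 fell and 1 rose, the falls including the cyclin B gene cyb-2.2 (-0.78 ± 0.13), the Aurora kinase gene air-1 (-0.76 ± 0.13) and the ribonucleotide reductase gene rnr-2 (-0.66 ± 0.13), with edgeR adjusted p of 0.00084, 0.00105 and 0.0029. Among the germline markers 2 of 6 rose (summed level 669 to 755 CPM and then 887 to 1026 CPM), among the oocyte markers 1 of 6 fell, and of 6 embryo markers 5 were under 1 CPM in a group. The germline markers include glh-1 and the oocyte markers puf-5, so they are not separate from the lists above. Of 91 sperm genes 5 rose and 10 fell, with a median of 0.30, and 8 of the falls were of nspc genes. Among the 6 sperm markers 1 rose and 1 fell, 4 were under 1 CPM in a group. Their summed level was 57.4 to 125 CPM in the double mutant and 36.9 to 54.6 CPM in the triple mutant, without overlap.

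These counts also moved with single libraries. Rises in the sperm list, nspc genes included, numbered 13 without double mutant replicate 2 and 3 without triple mutant replicate 3. Falls in that list numbered 6 without double mutant replicate 3 or triple mutant replicate 2 or 3. Oocyte falls numbered 3 without double mutant replicate 3, germ granule rises 4 without double mutant replicate 1 or 3 and 3 without triple mutant replicate 3. Falls of the division genes numbered 13 without double mutant replicate 2, 5 without daf-2 replicate 2 or 3, double mutant replicate 1 or triple mutant replicate 2, and 4 without double mutant replicate 3 or triple mutant replicate 3.

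Neuronal lists are given because the title of the series names REST and neural excitation. Both genotypes compared carry the spr-4 and spr-3 mutations, so these counts do not show what SPR-3 and SPR-4 themselves do. Against 14.9% of all tested genes, the share called was 26.9% for glutamate, 18.8% for synaptic, 17.2% for monoamine, 12.7% for neuropeptide-like, 12.1% for ion channel, 7.69% for GABA, 6.67% for FMRFamide-like and 5.71% for acetylcholine genes. Of 32 synaptic vesicle and transport genes 2 rose and 4 fell, of 33 ion channel genes 2 rose and 2 fell, of 26 glutamate genes 4 rose and 3 fell, and of 29 monoamine genes 2 rose and 3 fell. Of 35 acetylcholine genes 2 rose and 0 fell by edgeR (4 at an unadjusted p under 0.05, 1 by DESeq2 and 0 by limma-voom), and of 13 GABA genes 1 fell and 0 rose (1 at an unadjusted p under 0.05, 1 by DESeq2 and 0 by limma-voom). Of 30 FMRFamide-like peptide genes 1 rose and 1 fell, and of 63 other neuropeptide-like genes 5 rose and 3 fell. The median log2 fold changes of these lists lay between -0.37 and 0.10. Of the 6 neuron markers 0 passed by edgeR (2 were lower at an unadjusted p under 0.05, 0 by DESeq2 and by limma-voom), and their summed level was 233 to 247 CPM in the double mutant and 205 to 224 CPM in the triple mutant, without overlap. Among the neuropeptide-like genes 10 rose and 4 fell without double mutant replicate 2. In the other lists of this paragraph single libraries moved counts by no more than 3 genes in either direction, which was enough to empty some. Synaptic falls numbered 1 without double mutant replicate 3 or triple mutant replicate 2. Glutamate falls numbered 0 without triple mutant replicate 1 and ion channel falls 0 without double mutant replicate 1. The GABA fall was lost without double mutant replicate 3 or triple mutant replicate 1.

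Some single genes of these lists changed clearly. The nicotinic receptor subunit gene unc-38 was at 14.9, 16 and 11.8 CPM in the double mutant and 39.0, 35.7 and 43.1 CPM in the triple mutant, a rise of 2.76-fold (95% interval 2.16 to 3.52) (edgeR adjusted p = 3.2e-05). The glutamate transporter gene glt-3 went from 46.9, 58.9 and 40.6 to 132, 116 and 161 CPM (1.48 ± 0.17, edgeR adjusted p = 3.1e-05) and the metabotropic glutamate receptor gene mgl-1 from 0.699, 1.06 and 1.36 to 4.07, 3.78 and 5.29 CPM (2.06 ± 0.38, edgeR adjusted p = 0.00164). The gene unc-31, which primes dense-core vesicles, rose from 4.30, 2.36 and 2.45 to 7.92, 7.25 and 8.54 CPM (1.38 ± 0.31) and the inward rectifier potassium channel gene irk-1 from 1.36, 2.15 and 0.408 to 6.27, 3.68 and 7.04 CPM (2.12 ± 0.45), with edgeR adjusted p of 0.00707 and 0.00451. The methyltransferase gene comt-4 (1.74 ± 0.25) and the peptide genes nlp-48 (1.75 ± 0.25) and nlp-17 (1.45 ± 0.20) rose, while the peptide gene flp-3 (-1.06 ± 0.24) and tbh-1, which makes octopamine (-0.69 ± 0.14), fell (edgeR adjusted p = 0.00023, 0.00021, 0.00016, 0.00725 and 0.00305).

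Uterine, yolk and coelomocyte genes are where the double mutant libraries disagreed. Summed over the 5 ule genes the double mutant libraries held 6381, 24508 and 3742 CPM and the triple mutant libraries 31874, 34873 and 29015 CPM. The sums were 42251, 37178.5 and 41915 CPM in N2 and 19115, 10425.5 and 9922 CPM in daf-2. The triple mutant thus lay nearer to N2 than the double mutant did. With all libraries 0 of 5 passed by edgeR (1 was higher at an unadjusted p under 0.05, 1 by limma-voom and 0 by DESeq2). Without double mutant replicate 2 all 5 rose, ule-3 by 5.90 and ule-5 by 4.99 (edgeR adjusted p = 2.1e-06 and 2.8e-05). The ule-3 values were 352, 5852 and 168 CPM in the double mutant and 15093, 15964 and 14821 CPM in the triple mutant, and those of ule-5 were 313, 6222 and 130.4 CPM and 6923, 7885 and 6065 CPM. In ule-5 the replicate 2 value of the double mutant lies inside the triple mutant range, and in ule-3 it lies between the groups. The fold changes of ule-1, ule-2 and ule-4 were 0.73 ± 0.40, 0.25 ± 0.27 and 0.35 ± 0.46 with all libraries (edgeR adjusted p = 0.264, 0.616 and 0.688) and 1.4004, 0.76 and 1.17 without that library (edgeR adjusted p = 0.00404, 0.0174 and 0.0124).

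Vitellogenins are the yolk proteins that the intestine makes and oocytes take up. Of 6 vit genes 2 rose with all libraries and 6 without double mutant replicate 2. Their share of the counts was 4.04, 5.74 and 5.96% in N2, above the 2.82, 2.42 and 2.76% of the triple mutant. The vit-2 gene was at 3386, 11689 and 4899.6 CPM in the double mutant and 13057, 12093 and 12601 CPM in the triple mutant (0.92 ± 0.35, edgeR adjusted p = 0.097, and 1.62 with 0.00027 without replicate 2). The vit-6 gene gave 1571, 4965 and 1949 CPM and then 7428, 6434 and 6542 CPM (1.27 ± 0.35, edgeR adjusted p = 0.0255). Its call was lost without replicate 1 (0.067) or 3 (0.096) of the double mutant and without replicate 1 (0.069), 2 (0.061) or 3 (0.064) of the triple mutant, and without double mutant replicate 2 its fold change was 1.97 (3.7e-05). The less expressed vit-3 was at 6.08, 41 and 12.34 CPM and then 99.3, 94.9 and 73.2 CPM (2.17 ± 0.59, edgeR adjusted p = 0.0397), a call lost without any of 10 libraries, all but double mutant replicates 1 and 2 (adjusted p up to 0.13). The vit-1, vit-4 and vit-5 genes did not pass with all libraries (0.86 ± 0.43, 1.54 ± 0.61 and 0.03 ± 0.34, edgeR adjusted p = 0.222, 0.13 and 0.967). Several vit genes are near-identical copies, and no source says how reads that fit more than one place were counted.

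Coelomocytes are scavenger cells of the body cavity. All 3 of their markers rose with and without double mutant replicate 2. The cup-4 gene was at 16.3, 36.6 and 15.5 CPM in the double mutant and 62.7, 61.3 and 62.7 CPM in the triple mutant (1.45 ± 0.24, edgeR adjusted p = 0.00098), unc-122 rose by 1.70 ± 0.39 and lgc-26 by 1.80 ± 0.44 (edgeR adjusted p = 0.00784 and 0.0162, the latter lost at 0.057 and 0.052 without triple mutant replicates 2 and 3). Summed, the markers were at 20.2, 53.9 and 21.8 CPM in the double mutant and 87.7, 98.9 and 94.8 CPM in the triple mutant, so replicate 2 of the double mutant again lay between the rest. The part that this library's difference plays in the muscle, uterine, yolk and coelomocyte results was not tested.

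**Figure D3:**
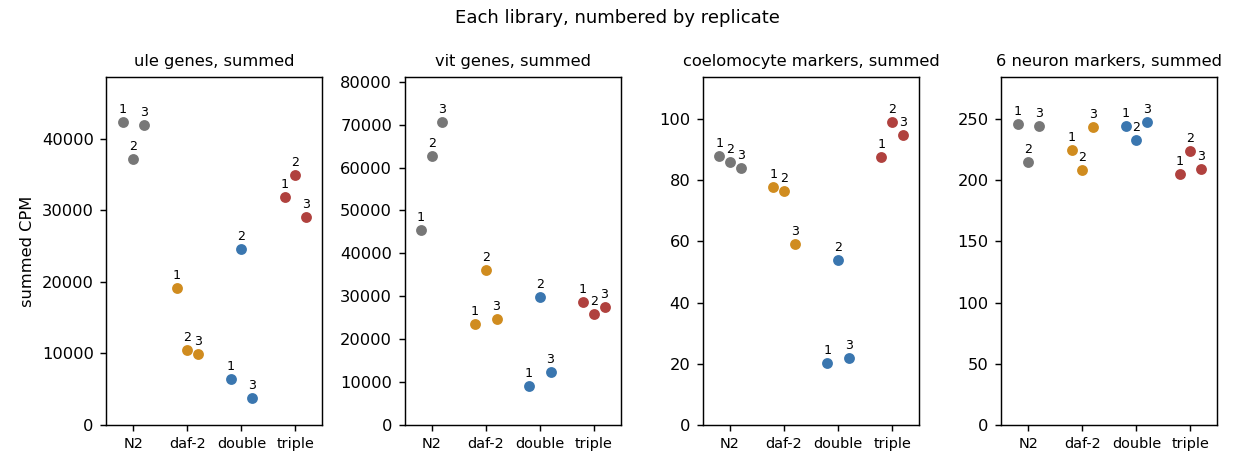
Summed CPM after TMM scaling (linear axis from 0) of the ule genes, the vit genes, 3 coelomocyte markers and 6 neuron markers in each library, numbered by replicate and coloured by genotype. In the first 3 panels replicate 2 of the double mutant lies apart from replicates 1 and 3, and in the neuron panel it does not.

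By chromosome, falls were more frequent on X. Of 2528 tested X genes 13.96% fell and 6.01% rose, while on the 5 autosomes 5.98 to 7.96% fell and 6.403 to 7.93% rose. The median log2 fold change was -0.12 on X and between 0.00 and 0.04 on the autosomes. The median on X was -0.06 without double mutant replicate 2. The share of X genes that fell was then 13.8%, and over all settings tried it was 8.95 to 16.06%, against at most 9.68% on any autosome in any of them. In daf-2 against N2, 13.1% of X genes fell and 9.55 to 11.9% of autosomal ones. These shares are a description, and no test was made of them, since neighbouring genes are not independent.

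**Figure D4:**
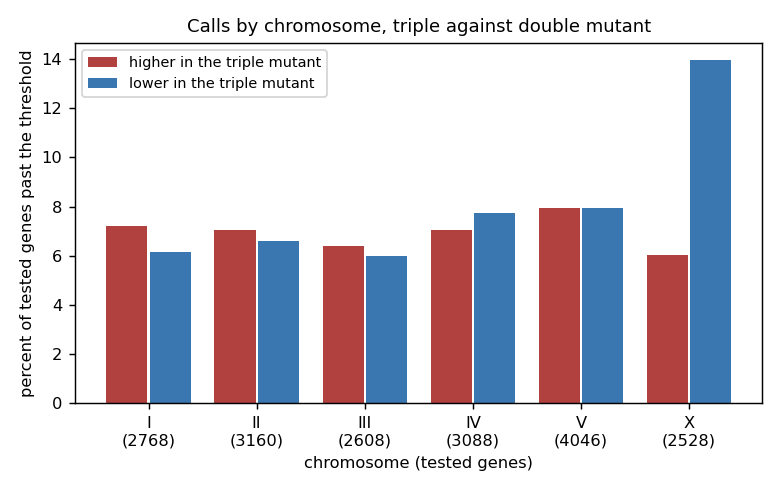
Percent of tested genes on each nuclear chromosome that passed an edgeR adjusted p of 0.05 as higher (red) or lower (blue) in the triple mutant, with the number tested under each name and the axis from 0. The share of falls on X (13.96%) stands above those of the 5 autosomes (5.98 to 7.96%), and the shares of rises are alike (6.01 to 7.93%).

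The change seen in the triple mutant can be set beside the effect of the daf-2 mutation in worms with normal spr-3 and spr-4, that is daf-2 against N2, since the pairs of genotypes share no library. That comparison called 3772 genes (20.6%), 1757 higher (9.58%) and 2015 lower (11%) in daf-2. Of the 1238 genes called in both, 1130 (91.3%) moved the same way, 519 up and 611 down, and these are 41.3% of the calls in the triple mutant against the double mutant and 29.96% of the calls in daf-2 against N2. Across 10120 genes of at least 5 CPM the log2 fold changes correlated at r = 0.53, which describes these libraries, since genes are not independent. Genes with like values in both were sod-5 (2.51 ± 0.24 here and 2.304 ± 0.24 in daf-2 against N2), hsp-12.3 (1.89 ± 0.18 and 2.21 ± 0.19), dpy-17 (1.46 ± 0.15 and 1.49 ± 0.15), aqp-1 (-2.77 ± 0.31 and -2.81 ± 0.31) and asp-17 (-4.72 ± 0.48 and -3.96 ± 0.48).

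Whether the effect itself differed was tested as an interaction, the fold change of the triple against the double mutant minus that of daf-2 against N2. It passed in 897 genes in the positive direction (4.89%) and 629 in the negative direction (3.43%), 8.32% in all, and 656 of the 2739 calls described here (24.0%) were among them. It passed in 1569 and 936 genes without double mutant replicate 2. Most of the strong class I and class II genes named above, sod-3, sod-5, sip-1, hsp-12.3, lea-1, aqp-1, ins-7, mtl-2 and dod-23, did not pass it (edgeR adjusted p = 0.45, 0.759, 0.552, 0.48, 0.267, 0.976, 0.21, 0.428 and 0.571), which does not show that their effects were equal.

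**Figure D5:**
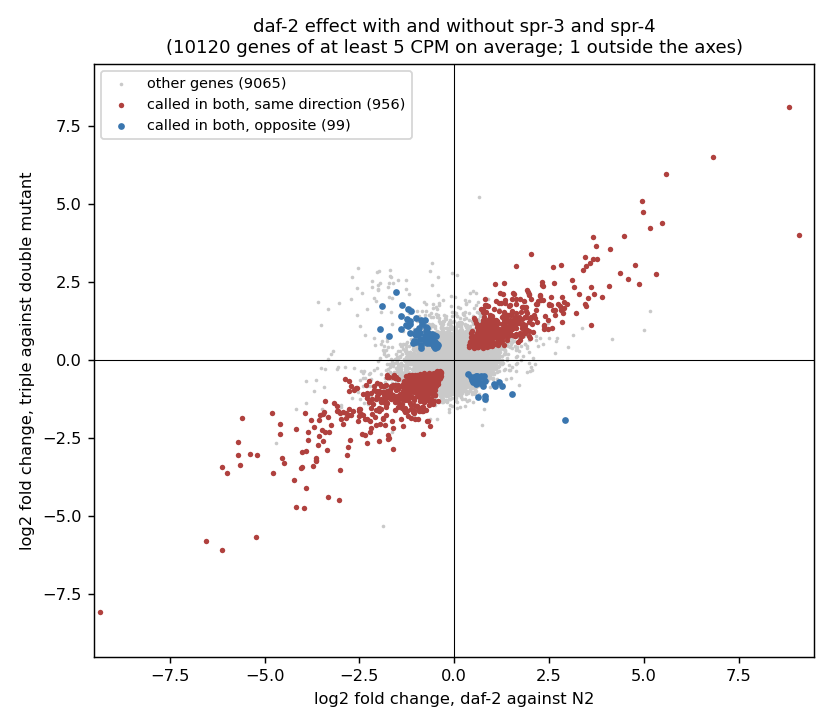
Log2 fold change of the triple against the double mutant (vertical) plotted against that of daf-2 against N2 (horizontal) for 10120 genes of at least 5 CPM on average, 1 of which lies outside the axes. Genes called in both comparisons lie mostly in the quadrants of equal sign (956 red points) and less often in those of opposite sign (99 blue points).

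Some effects were smaller without spr-3 and spr-4. The lysozyme gene lys-3 was at 374, 415 and 594 CPM in N2 and 7.43, 7.17 and 11.6 CPM in daf-2, against the 139, 99.7 and 144 and 13.6, 13.6 and 19.8 CPM of the double and triple mutants. Its log2 fold change was thus -5.70 ± 0.27 with the spr genes intact and -3.02 ± 0.24 without them (interaction 2.68 ± 0.32, edgeR adjusted p = 0.00037). The double mutant already lay below N2. Y41C4A.11 fell from 885, 853 and 964 to 20.2, 17 and 18.6 CPM in daf-2 and from 250.1, 328 and 368 to 93.2, 79.0 and 87.5 CPM here (interaction 3.73 ± 0.22, edgeR adjusted p = 1.2e-07). On the rising side dao-6 went from 40.3, 29.4 and 60.8 to 1329, 889.8 and 1589 CPM in daf-2 and from 109, 131 and 62.8 to 518, 600.5 and 519.9 CPM here (interaction -2.43 ± 0.41, edgeR adjusted p = 0.00332). The same held for T20D4.12 (-2.57 ± 0.47), Y6E2A.4 (-2.46 ± 0.23), col-50 (-1.73 ± 0.38), dlhd-1 (-1.57 ± 0.30), cyp-33C2 (-1.53 ± 0.33) and lipl-4 (-1.21 ± 0.24), all of which rose in both (edgeR adjusted p of the interaction 0.00453, 6.6e-05, 0.0111, 0.00589, 0.0102 and 0.00749).

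Other effects were seen in one background and not the other, or turned. F15H10.5 was at 0.976, 1.64 and 0.680 CPM in N2, 2.07, 2.01 and 1.27 CPM in daf-2, 0.734, 0.635 and 0.190 CPM in the double mutant and 18.3, 16.7 and 22.6 CPM in the triple mutant. Among these 4 genotypes the triple mutant alone lay above 16 CPM, and the interaction was 4.56 ± 0.58 (edgeR adjusted p = 0.00059). The kinase gene pdk-1 was at 31.8, 43.5 and 31.2 CPM in N2 and 37.2, 34.1 and 34.1 CPM in daf-2, and its fall in the triple mutant passed as a difference (-1.04 ± 0.23, edgeR adjusted p = 0.0128). Of the pathway genes akt-2 (-1.01 ± 0.18), an AKT kinase, and ist-1 (-1.85 ± 0.36), an insulin receptor substrate homologue, rose in daf-2 against N2 (0.92 ± 0.13 and 1.17 ± 0.26) and were at -0.09 ± 0.13 and -0.68 ± 0.26 here, not passing (edgeR adjusted p of the interaction 0.00433 and 0.00629). The laminin genes lam-1, from 32.2, 27.3 and 19.7 to 84.5, 107 and 67.2 CPM in daf-2 and from 40.9, 56.2 and 45.2 to 41.3, 22.4 and 19.3 CPM here, and epi-1 had negative interactions of -2.49 ± 0.37 and -2.09 ± 0.32 (edgeR adjusted p = 0.00193 and 0.00193). The fall of epi-1 here (-0.84 ± 0.23, edgeR adjusted p = 0.0201) was lost at 0.065, 0.069 and 0.062 without double mutant replicate 1 and triple mutant replicates 2 and 3, and that of lam-1, not passing at 0.0581, passed at 0.0041 without triple mutant replicate 1. Past the threshold in daf-2 against N2 and not here were ifas-1 (-3.24 ± 0.27 and 0.21 ± 0.24) and F40G12.5 (3.01 ± 0.21 and 0.42 ± 0.19, the latter passing at 0.038 without double mutant replicate 1).

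Calls in both comparisons with opposite directions numbered 108, 82 of them higher here and lower in daf-2 against N2. All 108 passed the interaction, which adds little, since the sizes of 2 called effects of opposite sign add up in it. Opposite calls numbered 338 without double mutant replicate 2. The beta-lactamase domain gene lact-7 fell from 37.5, 32.4 and 32.4 to 16, 9.66 and 9.25 CPM in daf-2 and rose from 6.67, 17.2 and 3.86 to 45.2, 39.4 and 42.3 CPM here (interaction 3.74 ± 0.59, edgeR adjusted p = 0.00384). The dendrite anchoring gene dyf-7 did likewise, falling from 26.1, 22.7 and 23.3 to 13.9, 9.26 and 9.33 CPM and rising from 6.26, 14 and 5.46 to 27.4, 25.6 and 23.8 CPM (interaction 2.73 ± 0.39, edgeR adjusted p = 0.0012). In both genes double mutant replicate 2 lay highest of its group, the 2 other double mutant libraries lay far below N2, and the interaction without that library was 4.60 and 3.31. Glycogen phosphorylase, pygl-1, also turned, from 866, 1028 and 1020.2 to 622, 653 and 531 CPM in daf-2 (interaction 1.39 ± 0.23, edgeR adjusted p = 0.00263).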

How the data were processed

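Whole-worm RNA was made into cDNA with SMART-Seq v4 reagents from 2 ng, sheared to a mean of 150 bp and read as paired ends of 75 bp, per the labels' protocols. The authors deposited raw counts per gene, whole numbers with no normalization, made with STAR (version not given) on WBcel235 and featureCounts 1.5.1, per the submitters' processing notes. The annotation, strand setting and handling of multiply placed reads are not stated by any label or note. The kit marks neither strand nor molecules, so the floor below covers counting error only, while the 95% intervals carry the spread between libraries, and reads of overlapping genes cannot be told apart. That touches daf-16, spr-1, hop-1, col-85, sod-3, trx-3, clc-19, pdk-1, sip-1, lea-1, cyp-35B1, aqp-1, hsp-17, gst-4, lipl-4, zip-10, acox-1.4, act-4, spn-4, csr-1, rnr-2, unc-38, mgl-1, irk-1, comt-4, nlp-17, tbh-1, vit-2, vit-3, vit-4, ule-1, lact-7, epi-1 and Y6E2A.4.

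Symbols were found for 43720 genes, and coordinates are from Ensembl release 115. edgeR 4.0.16 (R 4.3.3) took all 12 libraries in one fit, with 1 mean for each genotype, filterByExpr (minimum count 10, total 15), TMM scaling and robust quasi-likelihood F-tests, with Benjamini-Hochberg adjustment over all 18342 genes and a threshold of 0.05. Standard errors are the log2 fold change over the square root of F. No library repeats another of its genotype, since counts of such pairs gave a chi-square of 21.0 to 155 for each degree of freedom, and there are 0 columns of other samples. A floor of 3 counts over a group, on TMM-scaled library sizes, bounds folds against 0 reads. Alternatives were DESeq2 1.42.0, limma-voom (3.58.1) with quality weights, DESeq2 size factors, no filter, only the 6 libraries, a replicate block, the column suffix as a covariate and leaving out each library. No sequences are shown.

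The gene lists and the comparison were chosen with earlier results of these data known, so no list is independent evidence of its direction. Named genes are part of those a rule gives (the largest 14 rises and 14 falls with a class symbol and 3 each without, at 5 CPM or more and with no overlap of groups, up to 5 called members per list, and 10 interactions a direction), picked for known function and for calls that hold. Named outside it, after their values were seen, are ist-1, akt-2, ins-30, lea-1, cyp-35B1, cyp-33C2, clec-31, clec-218, acs-2, ttr-2, dyf-3, lys-7, vit-1, vit-2, vit-4, vit-5, ule-1, ule-2, ule-3, ule-4, ule-5, unc-122, cup-4, lgc-26 and ifas-1.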

Additional observations from a re-analysis of the deposited data

Results flagged for a closer look

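The genes below were picked out because the test of the difference itself, the fold change of the triple against the double mutant minus that of daf-2 against N2 (edgeR interaction, adjusted p under 0.05, 3 libraries in each of the 4 genotypes), passed. Values are log2 differences, positive where the triple mutant lay higher relative to the double mutant than daf-2 did relative to N2. Genes with 0 reads in every library of a genotype were left out. Of 53 named genes that passed, 33 also passed with the same sign whichever of the 12 libraries was left out.

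Among these 33 the positive differences were those of F15H10.5 (4.56), lact-7 (3.74), Y41C4A.11 (3.73), ifas-1 (3.46), dyf-7 (2.73), lys-3 (2.68), clec-218 (2.21), lev-11 (2.08), ilys-2 (1.95), cup-4 (1.88), act-4 (1.59), pygl-1 (1.39), glh-2 (1.33), glt-3 (1.24), ifb-2 (1.21), unc-15 (1.18), zip-10 (1.04) and act-5 (1.03). Many of them sit in genes that fell less here than in daf-2 against N2, such as lys-3, Y41C4A.11, ilys-2 and act-5. Others sit in muscle, coelomocyte or glutamate signalling genes that rose only here past the threshold, such as lev-11, unc-15, act-4, cup-4 and glt-3. In lev-11, unc-15, act-4 and cup-4 replicate 2 of the double mutant lay above its 2 fellows, and without it the differences were 2.75, 1.43, 2.05 and 2.43. The negative differences were those of F40G12.5 (-2.59), T20D4.12 (-2.57), lam-1 (-2.49), Y6E2A.4 (-2.46), dao-6 (-2.43), epi-1 (-2.09), ist-1 (-1.85), col-50 (-1.73), dlhd-1 (-1.57), cyp-33C2 (-1.53), ugt-63 (-1.46), acox-3 (-1.38), lipl-4 (-1.21), pdk-1 (-1.04) and akt-2 (-1.01).

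The other 20 lost the call when at least 1 library was left out, with adjusted p up to 0.14. Positive differences among them were those of osm-5 (2.24), unc-122 (2.18), vit-2 (1.85), cpr-5 (1.41), drd-5 (1.38), ule-2 (1.33), dod-19 (1.16), irg-8 (1.11), clc-19 (1.003) and puf-5 (0.77). Negative ones were those of hsp-12.6 (-1.39), flp-3 (-1.26), atg-16.1 (-1.17), icmt-1 (-1.08), gst-3 (-1.01), pqm-1 (-0.85), dyf-3 (-0.81), atg-16.2 (-0.75), cpl-1 (-0.73) and vha-12 (-0.68). For hsp-12.6 the call was lost without daf-2 replicate 3 (adjusted p = 0.054), for unc-122 without daf-2 replicate 3 or triple mutant replicate 2 (0.067 and 0.057), and for the rest without 5 or more libraries. Without double mutant replicate 2, 52 of the 53 passed, gst-3 being the exception (adjusted p = 0.051). Nothing more was tested on why these effects differ.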

How the results depend on the processing

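Of the 135 calls of named genes, 134 were kept with DESeq2 size factors, 135 with DESeq2, 133 with no filter on low counts, 130 with limma-voom and, where a value could be had, 126 of 134 with only the 6 libraries fitted, and 0 turned under any setting. These genes were picked in part for calls that hold, so the kept counts do not describe calls in general. When some library was left out, 13 of these 135 calls were lost, against 1527 of all 2739. Counts of rises and falls were 1323 and 1360 with DESeq2 size factors, 1599 and 1633 with no filter, 1740 and 1756 with DESeq2, 1431 and 1454 with limma-voom, and 1229 and 1264 with the suffix of the count columns as a covariate. Fitting only the 6 libraries gave 914 and 948. The interaction passed in 2329 genes with DESeq2.

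Leaving out 1 library gave 722 to 1712 rises, 860 to 1591 falls and 772 to 2505 interactions. Rises numbered 722 and 811 and falls 860 and 882 without double mutant replicate 3 and triple mutant replicate 3. The interaction count was 958 and 974 without N2 replicates 1 and 3, 925 and 772 without daf-2 replicates 2 and 3, 940, 2505 and 948 without double mutant replicates 1, 2 and 3, and 923 without triple mutant replicate 3. Calls in both daf-2 comparisons with the same direction numbered 839 to 1147. In genes that did not pass, vit-5 turned to -0.28, -0.17 and -0.02 without double mutant replicates 1 and 3 and triple mutant replicate 3, and ule-2 and ule-4 to -0.038 and -0.023 without double mutant replicate 3, while without double mutant replicate 2 they were at 0.73, 0.76 and 1.17.

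No clear pairing of samples by replicate number was seen, though groups of 3 libraries cannot exclude it. Libraries of the double and triple mutant with the same number correlated at -0.00349 to 0.0387 in their deviations from the group means, and over all genotypes at -0.0667 to 0.064. Pairs with different numbers were at -0.0655 to 0.0761. Between N2 and daf-2, same-number pairs were at 0.064, 0.05 and 0.0543 and other pairs at -0.0655 to 0.0118. With the replicate number as a block 1142 genes rose and 1215 fell, and 1151 passed the interaction.

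The spread sets the limit: the common biological coefficient of variation was 0.291, with 3 libraries a side, and 1527 of the 2739 calls were lost when some library was left out.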

Other observations

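Genes of sensory cilia rose in 6 of 42 tested members and fell in 0 by edgeR (0 also by DESeq2, by limma-voom and at an unadjusted p under 0.05), with a median log2 fold change of 0.48 against 0.01 over all genes and 5 to 7 rises whichever library was left out. The 6 were 14.3% of the list, while of all tested genes 7.02% rose and 14.9% were called in either direction. The intraflagellar transport gene osm-5 was at 1.05, 1.97 and 2.26 CPM in the double mutant and 5.72, 5.33 and 7.32 CPM in the triple mutant (1.79 ± 0.42, edgeR adjusted p = 0.00916), and dyf-3 was at 89.3, 100.1 and 112 CPM and then 167, 191 and 162 CPM (0.79 ± 0.15, edgeR adjusted p = 0.00274). With dyf-7 they lay higher in every triple mutant library than in any double mutant library. Of 53 tested ttr genes, which encode secreted proteins related to transthyretin, 13 rose and 1 fell, with a median of 0.20. The ttr-2 gene went from 222, 377 and 121 to 769, 889 and 621 CPM (1.66 ± 0.35, edgeR adjusted p = 0.00706), with no such change in daf-2 against N2 (0.15 ± 0.34, edgeR adjusted p = 0.804), and the interaction did not pass (1.51 ± 0.48, edgeR adjusted p = 0.0743).

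The nspc genes, a family of small nematode-specific peptides, fell in 8 of 18 tested members, with a median of -1.69. The nspc-20 gene was at 11.6, 35.9 and 17.9 CPM in the double mutant and 1.91, 2.55 and 1.56 CPM in the triple mutant (-3.44 ± 0.47, edgeR adjusted p = 0.00067). Members of this family resemble each other closely, so reads may be shared between them. The ttr and nspc genes were set apart as families after their values were seen.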
